A study of Arabidopsis thaliana with 64 samples.

Results

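The 7 chlorophyll breakdown genes NYE1, NYE2, NYC1, NOL, PPH, PAO and RCCR were followed through leaf RNA-seq of Arabidopsis thaliana. They were taken by locus identifier from the 28775 genes of the deposited expression table and read in 40 libraries of 15 groups. The 5 genotypes were atg7-2, DSK2 RNAi, bes1-D, bri1-301 and WT. All plants were 4 weeks old and had grown under 16 h of light. Leaves of each genotype were taken after 5 days of fixed-carbon starvation (n = 2), after 4 h of dehydration (n = 3) or without treatment as controls (n = 3). The allele atg7-2 affects ATG7, an enzyme that autophagosome formation needs. The DSK2 RNAi plants have DSK2, a ubiquitin-binding cargo receptor of autophagy, silenced. The allele bes1-D makes BES1, a transcription factor that acts downstream of brassinosteroids, more stable, and bri1-301 is a weak allele of the brassinosteroid receptor BRI1. The labels give these genotypes by name only, with no line number, no promoter for the RNAi construct and no statement of how carbon was withheld. Nothing in them ties replicates to different plants, and the p-values therefore reflect spread among these libraries, which may be technical. The 24 labelled libraries of another 4 genotypes were not analysed here.

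Green leaves hold chlorophyll in the light-harvesting antenna, and dismantle it in a fixed order when they yellow. Chlorophyll b is first reduced towards chlorophyll a by a reductase with the subunits NYC1 and NOL. NYE1 and NYE2, also called SGR1 and SGR2, are the stay-green proteins, which remove magnesium from chlorophyll a to give pheophytin. PPH then splits off the phytol tail, PAO opens the ring of the resulting pheophorbide, and RCCR reduces the red product to a colourless fluorescent one that is exported to the vacuole. Loss of PAO or RCCR lets phototoxic intermediates build up, and loss of NYE1, PPH or NYC1 gives leaves that stay green.

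In the RefSeq annotation of TAIR10.1, NYE1 (AT4G22920) lies on the minus strand at chr4:12016420-12018643, NYE2 (AT4G11910) on the plus strand at chr4:7156150-7158047, and NYC1 (AT4G13250) on the minus strand at chr4:7684156-7687006. NOL (AT5G04900) lies on the plus strand at chr5:1434774-1437495, PPH (AT5G13800) on the minus strand at chr5:4451733-4454813, PAO (AT3G44880) on the plus strand at chr3:16383595-16386344 and RCCR (AT4G37000) on the plus strand at chr4:17442612-17444295. The 250 bases before the annotated start are shown for the pairs NYE1 and NYE2, and NYC1 and NOL, because the members of each pair catalyse the same step and differed in their responses. The sequences run 5′ to 3′ on the gene's strand and cover chr4:12018644-12018893 for NYE1, chr4:7155900-7156149 for NYE2, chr4:7687007-7687256 for NYC1 and chr5:1434524-1434773 for NOL. Capitals mark matches to the motifs searched on both strands, which were the G-box CACGTG, the abscisic acid (ABA) response elements ACGTGGC and ACGTGTC, the brassinosteroid response elements CGTGTG and CGTGCG, the PIF-bound E-box variant CACATG, and the W-boxes TTGACC and TTGACT.
NYE1: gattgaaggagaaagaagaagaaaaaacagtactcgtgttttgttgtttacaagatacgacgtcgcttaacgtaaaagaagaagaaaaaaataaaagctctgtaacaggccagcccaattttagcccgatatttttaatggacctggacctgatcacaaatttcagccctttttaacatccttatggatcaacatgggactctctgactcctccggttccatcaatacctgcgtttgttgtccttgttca
NYE2: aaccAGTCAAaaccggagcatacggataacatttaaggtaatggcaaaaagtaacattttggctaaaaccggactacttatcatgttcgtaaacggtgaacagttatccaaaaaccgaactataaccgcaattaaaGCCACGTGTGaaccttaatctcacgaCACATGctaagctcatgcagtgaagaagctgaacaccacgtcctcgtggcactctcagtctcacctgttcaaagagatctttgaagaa
NYC1: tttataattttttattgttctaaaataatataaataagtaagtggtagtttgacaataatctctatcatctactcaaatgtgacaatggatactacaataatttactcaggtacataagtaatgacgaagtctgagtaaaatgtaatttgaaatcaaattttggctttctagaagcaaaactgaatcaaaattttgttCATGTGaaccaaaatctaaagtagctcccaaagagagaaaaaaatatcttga
NOL: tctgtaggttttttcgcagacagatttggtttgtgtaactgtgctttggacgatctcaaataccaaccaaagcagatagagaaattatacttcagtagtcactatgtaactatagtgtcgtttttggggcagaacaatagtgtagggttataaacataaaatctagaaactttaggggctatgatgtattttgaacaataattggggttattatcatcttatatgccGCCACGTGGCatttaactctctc

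In the NYE2 window, the G-box at -112 overlapped an ABA response element at -114 and a brassinosteroid response element at -110, counted from the first base of the gene. The same window held the E-box variant at -88 and a W-box at -246. The NOL window held a G-box at -21 inside ABA response elements on both strands. NYC1 held the E-box variant at -52 and PPH held it at -6, and none of the motifs was found in the windows of NYE1, PAO and RCCR. Among 27443 windows of the same length before protein-coding genes, 6.49% held the G-box, 6.39% an ABA response element, 6.71% a brassinosteroid response element, 11.1% the E-box variant and 28.4% a W-box.

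Levels are given in RPM, reads scaled to library depth, as the deposited table names them. The libraries held 26634819 to 30375860 reads, and the lowest value of any member, 7.65 RPM of NYE2, rested on 223 reads. Differences were tested with limma on log2(RPM + 0.5) across 19824 genes, all 7 members included, and a gene is called where its Benjamini-Hochberg adjusted p is under 0.05. Starvation moved the median of all genes, by -0.26 on the log2 scale in WT and by -0.52 in atg7-2, so that a gene at the median counts as slightly lower there. Libraries also differed in how long transcripts fared against short ones. The slope on log2 transcript length ran from -0.93 to 0.46, with bes1-D starvation replicate 2 and WT dehydration replicate 3 farthest from the median. Among targeted genes, DSK2A averaged 6.63 ± 0.721 RPM in DSK2 RNAi controls, against 69.0 ± 7.50 RPM in WT controls (SD, n = 3 each). DSK2B averaged 14.8 ± 0.859 RPM in DSK2 RNAi controls, against 133 ± 2.38 RPM in WT controls, but 155 ± 43.7 RPM in starved DSK2 RNAi leaves, against 215 ± 7.08 RPM in starved WT leaves (n = 2 each). ATG7 was 16.5 ± 1.99 RPM in atg7-2 controls, against 11.3 ± 0.893 RPM in WT controls, and a sum of reads over the whole gene does not check an insertion allele. RNA levels do not check bes1-D or bri1-301. The summed level of 4 mesophyll markers was 1173 to 1233 RPM in starved WT leaves and 16980 to 25010 RPM in WT controls, and that of 5 floral markers was 17.2 to 20.4 RPM and 4.16 to 6.40 RPM in the same groups. That of 3 xylem markers was 0.104 to 0.202 RPM in starved WT leaves and 22.0 to 48.7 RPM in WT controls, and that of 3 phloem markers was 37.0 to 37.2 RPM and 75.4 to 134.5 RPM in the same groups. The epidermis markers were at 334.0 to 367.3 RPM in starved WT leaves and 388.6 to 416.0 RPM in WT controls, and the guard cell markers at 14.45 to 19.54 RPM and 27.1 to 32.7 RPM. The part of cell composition in the results was not tested, and in bulk leaves fewer cells of a type and less RNA per cell cannot be told apart.

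In WT controls, PAO was the most abundant of the 7 transcripts per length, at 172 ± 59.1 RPM per kilobase, followed by PPH at 99.7 ± 26.9 and NYC1 at 90.5 ± 15.7 RPM per kilobase (SD, n = 3 each). RCCR stood at 36.3 ± 9.74, NYE2 at 19.3 ± 6.71, NYE1 at 18.9 ± 6.50 and NOL at 15.5 ± 4.29 RPM per kilobase. NYE1 and NYE2, like PPH and NYC1, did not differ beyond that spread. After starvation the order was another one. NYC1 led in starved WT leaves at 401 ± 98.0 RPM per kilobase, followed by PAO at 342 ± 34.7 and NYE2 at 188 ± 33.9 RPM per kilobase (n = 2). Summed over the 7 genes, the level per kilobase was 2971 to 3137 RPM in starved atg7-2 leaves, 1057 to 1319 RPM in starved WT leaves and 319.7 to 572 RPM in WT controls.

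**Figure D1:**
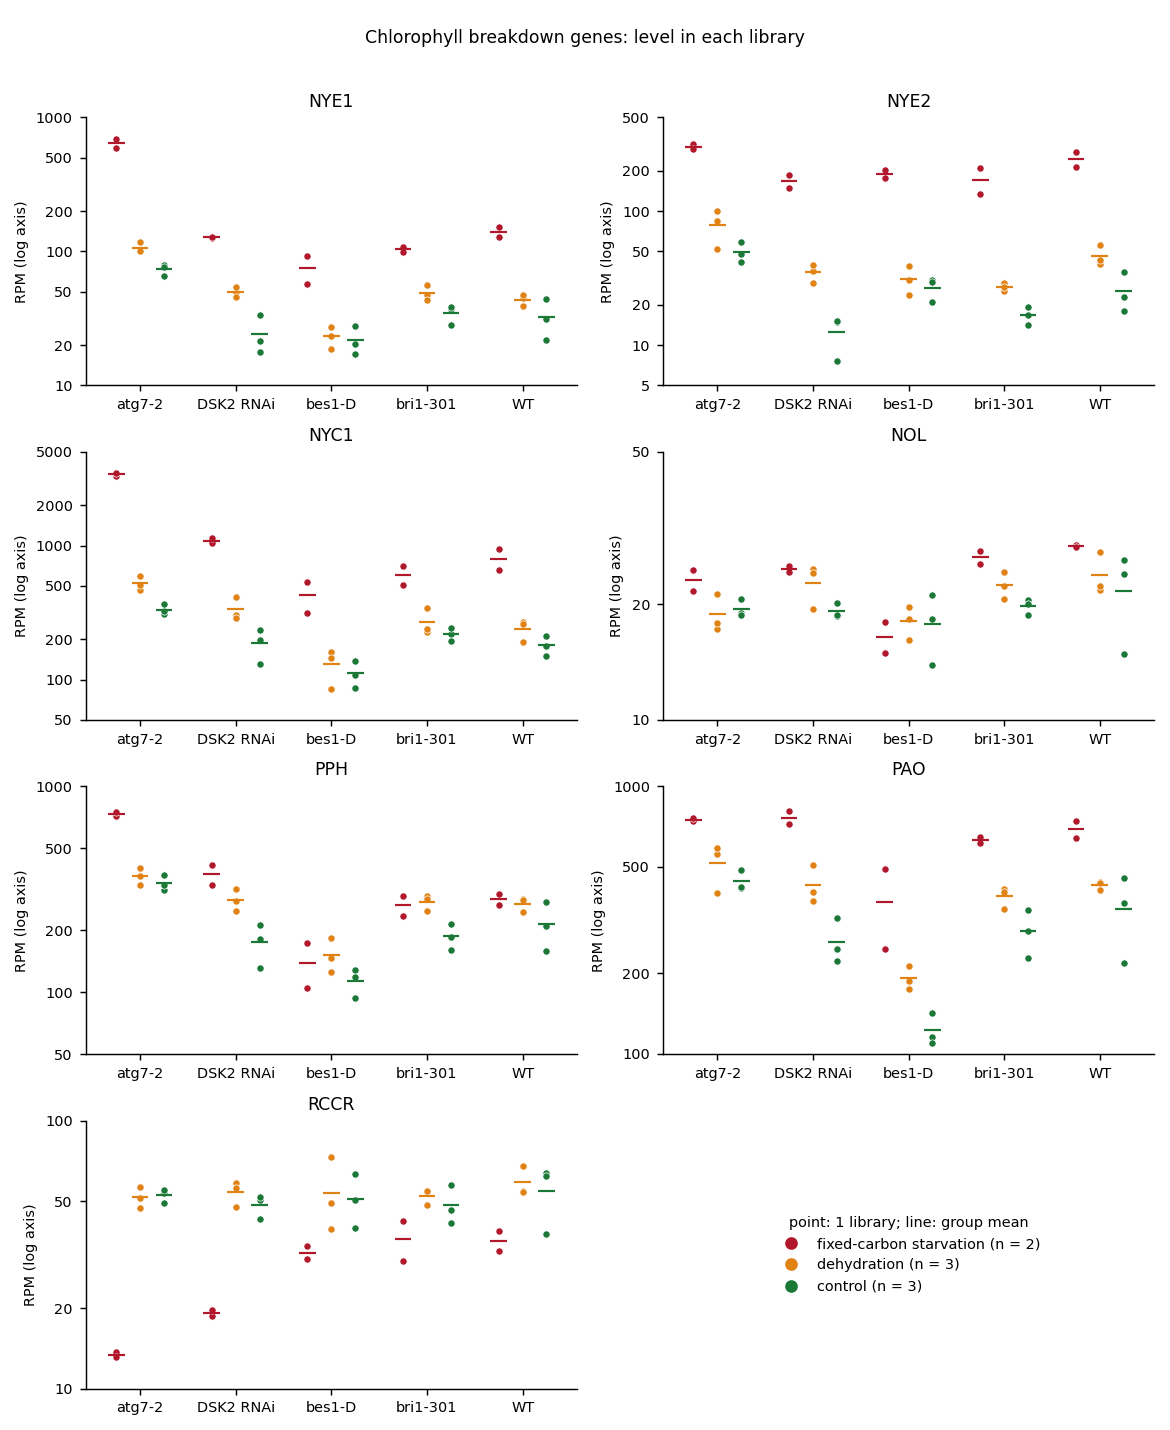
RPM of each of the 7 genes (log axis) in all 40 libraries, by genotype and treatment, with 1 point per library and a line at the group mean. In every genotype the starved libraries stand above the controls for NYE1, NYE2, NYC1 and PAO, and starved atg7-2 is the highest group for NYE1, NYE2, NYC1 and PPH and the lowest for RCCR.

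Starvation of WT leaves raised the transcripts of the stay-green proteins, of NYC1 and of PAO. NYE2 was 215 and 277 RPM in starved WT leaves, against 23.0, 17.9 and 35.0 RPM in WT controls, a log2 change of 3.30 (SE 0.29, limma adjusted p = 4.73e-11). NYE1 was 129 and 152 RPM in starved WT leaves, against 31.6, 21.8 and 44.2 RPM in WT controls, a log2 change of 2.15 (SE 0.25, limma adjusted p = 1.40e-08). Both starved libraries lay above all 3 controls for each gene.

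NYC1, the chlorophyll b reductase subunit that spans the thylakoid membrane, was 660.0 and 936 RPM in starved WT leaves, against 177, 150.3 and 212 RPM in WT controls. Its log2 change was 2.14 (SE 0.27, limma adjusted p = 6.29e-08), with no overlap between the groups. The partner subunit NOL was 28.6 and 28.3 RPM in starved WT leaves, against 24.1, 14.9 and 26.2 RPM in WT controls, a log2 change of 0.42 that was not called (SE 0.19, limma adjusted p = 0.0534).

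PAO was 640.0 and 739 RPM in starved WT leaves, against 366, 219 and 454 RPM in WT controls, a log2 change of 1.05 (SE 0.25, limma adjusted p = 0.000537). PPH, one step upstream, was 265 and 301 RPM in starved WT leaves, against 210.4, 158 and 274 RPM in WT controls, and its log2 change of 0.43 was not called (SE 0.22, limma adjusted p = 0.0917). The starved PPH values overlapped the controls, whereas those of PAO did not. RCCR was the member that fell, at 38.8 and 32.6 RPM in starved WT leaves, against 64.0, 37.8 and 62.4 RPM in WT controls (log2 -0.58, SE 0.23, limma adjusted p = 0.0284), and its groups overlapped.

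In all, 4 of the 7 genes rose and 1 fell in starved WT leaves, where 24.7% of all tested genes rose and 35.7% fell (60.4% called in either direction). The median log2 change was 1.05 over the members and -0.26 over all genes. The small changes depended on the scaling. With libraries scaled by the median of ratios, which moved the median of all genes in WT starvation to -0.07, NOL (log2 0.64, limma adjusted p = 0.00746) and PPH (log2 0.65, limma adjusted p = 0.0116) were called higher and RCCR was no longer called (log2 -0.36, limma adjusted p = 0.253). RCCR was not called in edgeR (-0.40, adjusted p = 0.207), in DESeq2 (-0.40, adjusted p = 0.216) or with only the libraries compared (-0.58, limma adjusted p = 0.0813) either. It was also lost without WT control replicate 1 (limma adjusted p = 0.121) or 3 (0.110) or WT starvation replicate 2 (0.193). The authors' deposited table likewise marks NOL and PPH as changed in starved WT leaves and RCCR as unchanged, beside the other 4 genes marked as changed. It marks 14529 of all 28775 genes in that comparison.

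NYE1, NYE2, NYC1 and PAO also rose in starved leaves of each mutant. With PPH, they made 5 of 7 genes higher and RCCR 1 lower in atg7-2, where 22.3% of all genes rose and 47.2% fell (69.5% called), or 35.1% and 36.6% with scaling by the median of ratios. The counts were the same in DSK2 RNAi, where 24.9% rose and 36.0% fell (61.0% called). They were 4 higher and 1 lower in bes1-D, where 26.1% rose and 39.9% fell (66.0% called), and 4 higher and 0 lower in bri1-301, where 21.8% rose (54.1% called). The RCCR call in bes1-D was not kept with scaling by the median of ratios (log2 -0.31, limma adjusted p = 0.323), in edgeR (-0.36, adjusted p = 0.241), in DESeq2 (-0.29, adjusted p = 0.366) or with only the libraries compared (-0.63, limma adjusted p = 0.139). It was also lost without replicate 1 of the bes1-D controls (limma adjusted p = 0.0923) or of starved bes1-D (0.0943). The log2 change of NYE2 lay between 2.61 in atg7-2 and 3.74 in DSK2 RNAi. That of NYE1 lay between 1.58 in bri1-301 and 3.11 in atg7-2, that of NYC1 between 1.47 in bri1-301 and 3.36 in atg7-2, and that of PAO between 0.77 in atg7-2 and 1.55 in DSK2 RNAi. PPH rose by 1.11 on the log2 scale both in atg7-2 (SE 0.22, limma adjusted p = 5.77e-05) and in DSK2 RNAi (SE 0.22, limma adjusted p = 7.27e-05), and was not called in bes1-D (0.26) or bri1-301 (0.50). With scaling by the median of ratios PPH was called in both, at 0.59 in bes1-D (limma adjusted p = 0.0204) and 0.67 in bri1-301 (limma adjusted p = 0.0109). NOL was called in no genotype, with log2 changes from -0.10 to 0.42. With scaling by the median of ratios, NOL was called higher in WT, atg7-2, DSK2 RNAi and bri1-301. The authors' deposited table marks all 7 genes as changed in starved atg7-2 and DSK2 RNAi. In starved bes1-D it marks 5, all but NOL and RCCR, and in starved bri1-301 it marks 4, NYE1, NYE2, NYC1 and PAO. Of all 28775 genes it marks 16655 in starved atg7-2, 14765 in DSK2 RNAi, 14313 in bes1-D and 9834 in bri1-301.

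RCCR was 13.8 and 13.1 RPM in starved atg7-2 leaves, against 49.5, 54.0 and 55.0 RPM in atg7-2 controls, a log2 change of -1.94 (SE 0.23, limma adjusted p = 7.80e-09). It was 18.6 and 19.7 RPM in starved DSK2 RNAi leaves, against 50.7, 43.1 and 52.0 RPM in DSK2 RNAi controls, a log2 change of -1.32 (SE 0.23, limma adjusted p = 8.32e-06). The starved libraries lay below all controls in both genotypes. The annotated RCCR gene shares 167 bases on the same strand with CEN2 (AT4G37010), whose level was 35.1 to 208.5 RPM over all starved libraries and 3.17 to 17.1 RPM over all controls. No source used here states how reads of the shared bases were assigned, and their part in the RCCR result was not tested. PAO shares 11 bases with AT3G44870, which reached at most 2.05 RPM. None of the 50-base windows of the 7 transcripts, 50 bases being the read length, occurs elsewhere in the genome.

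**Figure D2:**
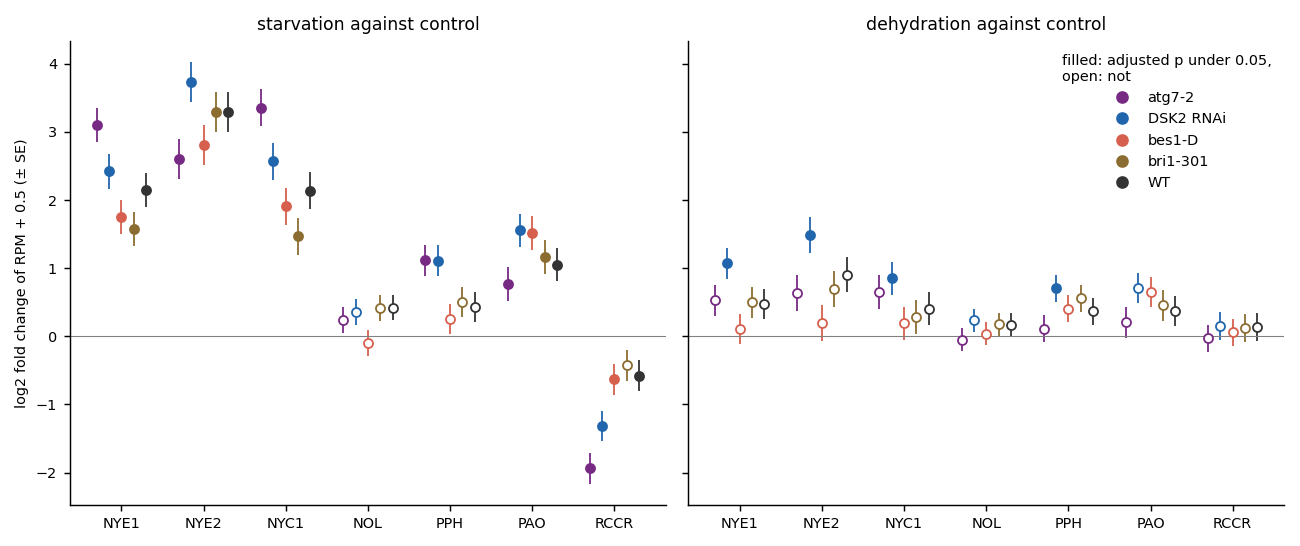
Log2 change of each gene with its standard error, for starvation against control and for dehydration against control in each genotype. Filled points have an adjusted p under 0.05 and open points do not. NYE1, NYE2, NYC1 and PAO lie above zero in every starved genotype, RCCR lies below zero in each, and the highest dehydration change is 1.49, for NYE2 in DSK2 RNAi.

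After 4 h of dehydration, DSK2 RNAi was the genotype in which members were called by limma. NYE2 was 35.8, 39.9 and 29.1 RPM in dehydrated DSK2 RNAi leaves, against 14.9, 7.65 and 15.2 RPM in DSK2 RNAi controls, a log2 change of 1.49 (SE 0.26, limma adjusted p = 0.00171). NYE1 was 49.5, 54.3 and 45.5 RPM in dehydrated DSK2 RNAi leaves, against 21.5, 17.7 and 33.5 RPM in DSK2 RNAi controls, a log2 change of 1.07 (SE 0.23, limma adjusted p = 0.00573). For both genes each dehydrated library exceeded each control. NYC1 (log2 0.85, limma adjusted p = 0.0422) and PPH (log2 0.71, limma adjusted p = 0.0405) were called too, close to the threshold, so that 4 of 7 genes rose where 2.25% of all genes rose (3.82% called in either direction; 1.66% rose with scaling by the median of ratios). PAO, at a log2 change of 0.71, was not called (limma adjusted p = 0.0703). Without DSK2 RNAi control replicate 3 it was called (log2 0.86, limma adjusted p = 0.0421). The authors' deposited table marks PAO and the 4 called genes as changed, among 3573 of all 28775 genes. The mesophyll markers summed to 14740 to 15790 RPM in dehydrated DSK2 RNAi leaves and 18080 to 23270 RPM in DSK2 RNAi controls, and their part was not tested.

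Part of that count depended on the processing and on single libraries. PPH was not called with scaling by the median of ratios (log2 0.59, limma adjusted p = 0.0890), in edgeR (0.63, adjusted p = 0.0647) or in DESeq2 (0.58, adjusted p = 0.0515). With no filter on low values, neither PPH (limma adjusted p = 0.0516) nor NYC1 (0.0591) was called, nor were they with only the libraries compared (0.0606 for PPH and 0.0631 for NYC1). Without DSK2 RNAi control replicate 2, NYE1 had a log2 change of 0.87 and was not called (limma adjusted p = 0.0546). NYC1 was lost without control replicate 1 or 2 or any dehydrated library of DSK2 RNAi, with adjusted p from 0.0723 to 0.271, and PPH without any of the same 5 libraries, with adjusted p from 0.0663 to 0.351.

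In dehydrated WT leaves 0 of the 7 genes were called by limma (0.298% of all genes called), and 2 had an unadjusted p under 0.05. NYE2 was 40.1, 43.4 and 56.2 RPM in dehydrated WT leaves, against 23.0, 17.9 and 35.0 RPM in WT controls, with no overlap and a log2 change of 0.91 (SE 0.26, limma adjusted p = 0.103). DESeq2 called it, at 1.03 (adjusted p = 0.0315). The authors' deposited table marks NYE2 as changed in that comparison, among 554 of all 28775 genes. Likewise 0 members were called by limma in dehydrated atg7-2 (0.00% called; 3 with an unadjusted p under 0.05), bes1-D (1.18%; 2 with an unadjusted p under 0.05) and bri1-301 (0.797%; 3 with an unadjusted p under 0.05). The authors' deposited table marks 1 member as changed in dehydrated atg7-2, 0 in bes1-D and 3 in bri1-301. Of all 28775 genes it marks 111, 542 and 1640 in the same comparisons. The log2 changes were above zero for 5 of the 7 genes in atg7-2 and for all 7 in each other genotype. Their median was 0.71 in DSK2 RNAi, 0.45 in bri1-301, 0.37 in WT, 0.20 in atg7-2 and 0.19 in bes1-D. Each dehydrated library exceeded each control for 5 genes in bri1-301, as in DSK2 RNAi. The same held for 2 genes in atg7-2 and for 1 each in WT and bes1-D. RCCR moved by -0.03 to 0.15 on the log2 scale across the 5 genotypes. A genotype-by-dehydration difference was called by limma for 0 of the 7 genes in each mutant (0.00% of all genes called in atg7-2, DSK2 RNAi and bri1-301, and 0.0656% in bes1-D), and 0 had an unadjusted p under 0.05.

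NYE1, NYE2, NYC1 and PPH were already higher in atg7-2 than in WT before any treatment. NYE1 was 65.5, 79.7 and 77.0 RPM in atg7-2 controls, against 31.6, 21.8 and 44.2 RPM in WT controls, a log2 difference of 1.23 (SE 0.23, limma adjusted p = 0.00184). NYE2 was 42.1, 48.2 and 58.4 RPM in atg7-2 controls, against 23.0, 17.9 and 35.0 RPM in WT controls, a log2 difference of 1.00 (SE 0.26, limma adjusted p = 0.0248). NYC1 was 311, 323 and 365 RPM in atg7-2 controls, against 177, 150.3 and 212 RPM in WT controls, a log2 difference of 0.90 (SE 0.24, limma adjusted p = 0.0285). The atg7-2 libraries lay above the WT libraries for each of these 3 genes.

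PPH was 315, 370 and 332 RPM in atg7-2 controls, against 210.4, 158 and 274 RPM in WT controls, a log2 difference of 0.70 (SE 0.20, limma adjusted p = 0.0380), again without overlap. NOL (-0.11), PAO (0.41) and RCCR (-0.01) were not called, so 4 of 7 genes were higher where 2.33% of all genes were higher (4.74% called in either direction). The authors' deposited table marks the same 4 genes as changed, among 2590 of all 28775 genes. The epidermis markers summed to 243.3 to 304.0 RPM in atg7-2 controls and 388.6 to 416.0 RPM in WT controls, and the mesophyll markers to 15060 to 16940 RPM and 16980 to 25010 RPM, with 1 of 4 called lower in each list. Their part in the differences was not tested. NYE1 was called without any 1 library of the comparison, but not with only the libraries compared (limma adjusted p = 0.0537), where NYE2 (0.0828) and PPH (0.110) were not called either. NYE2, NYC1 and PPH were all lost without WT control replicate 1 or 2, or without atg7-2 control replicate 2 or 3, and NYC1 and PPH without atg7-2 control replicate 1. In dehydrated leaves 2 genes were higher in atg7-2 than in WT (6.24% of all genes higher, 9.42% called; 5.24% higher with scaling by the median of ratios), NYE1 by 1.28 (limma adjusted p = 0.000771) and NYC1 by 1.15 (limma adjusted p = 0.00380) on the log2 scale. NYC1 was not called with only the libraries compared (limma adjusted p = 0.0651). The mesophyll markers summed to 12360 to 14280 RPM in dehydrated atg7-2 and 14790 to 18530 RPM in dehydrated WT leaves, and their part was not tested.

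In starved leaves NYC1, NYE1 and PPH were higher in atg7-2 than in WT. NYC1 was 3309 and 3503 RPM in starved atg7-2 leaves, against 660.0 and 936 RPM in starved WT leaves, a log2 difference of 2.12 (SE 0.30, limma adjusted p = 8.17e-07). NYE1 was 589 and 693 RPM in starved atg7-2 leaves, against 129 and 152 RPM in starved WT leaves, a log2 difference of 2.19 (SE 0.28, limma adjusted p = 1.33e-07). PPH was 714 and 751 RPM in starved atg7-2 leaves, against 265 and 301 RPM in starved WT leaves, a log2 difference of 1.38 (SE 0.24, limma adjusted p = 2.41e-05). Neither genotype overlapped the other for these 3 genes. With 2 libraries per group such separation is easily met, and its share over all genes was not computed.

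RCCR went the other way, at 13.8 and 13.1 RPM in starved atg7-2 leaves, against 38.8 and 32.6 RPM in starved WT leaves (log2 -1.37, SE 0.25, limma adjusted p = 2.99e-05). The other stay-green gene did not follow NYE1. NYE2 was 315 and 289 RPM in starved atg7-2 leaves, against 215 and 277 RPM in starved WT leaves, a log2 difference of 0.31 that was not called (SE 0.32, limma adjusted p = 0.441). PAO (0.12) and NOL (-0.29) were not called. In all, 3 genes were higher and 1 lower in starved atg7-2, where 18.1% of all genes were higher and 36.1% lower (54.2% called). With scaling by the median of ratios 27.5% of all genes were higher and 28.7% lower. Transcript length moved with this comparison, since the length slope was 0.38 to 0.46 in starved atg7-2 libraries and -0.48 to -0.30 in starved WT libraries. With that trend removed, the differences were 2.15 for NYE1, 1.91 for NYC1, 1.08 for PPH and -1.26 for RCCR, all 4 still called. The summed mesophyll markers were 527 to 684 RPM in starved atg7-2 and 1173 to 1233 RPM in starved WT leaves. The summed level of 4 epidermis markers was 169.3 to 214.5 RPM in starved atg7-2 and 334.0 to 367.3 RPM in starved WT leaves, and that of 3 guard cell markers was 10.35 to 11.34 RPM and 14.45 to 19.54 RPM in the same groups. The phloem markers were at 27.0 to 28.4 RPM and 37.0 to 37.2 RPM, the floral markers at 24.5 to 28.4 RPM and 17.2 to 20.4 RPM, and the xylem markers at 0.613 to 0.820 RPM and 0.104 to 0.202 RPM. The part of these markers in the differences was not tested.

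**Figure D3:**
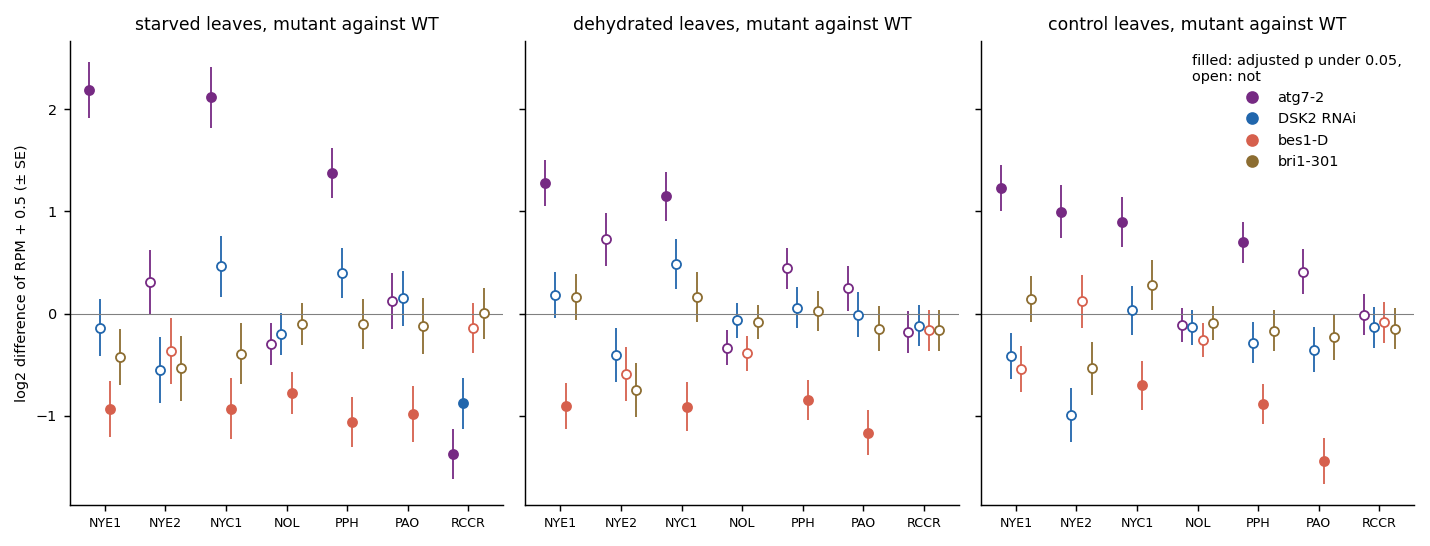
Log2 difference of each mutant from WT with its standard error, in starved, dehydrated and control leaves, for the 7 genes, with filled points where the adjusted p is under 0.05. NYE1 and NYC1 lie farthest above zero in starved atg7-2 (2.19 and 2.12), and PAO lies farthest below zero in bes1-D controls (-1.44).

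The response to starvation itself differed between atg7-2 and WT for 3 genes, where 9.76% of all genes had a positive and 28.2% a negative called difference (37.9% in all). With scaling by the median of ratios these shares were 19.8% positive and 18.1% negative. The log2 change was larger in atg7-2 by 1.22 for NYC1 (SE 0.38, limma adjusted p = 0.0132) and by 0.96 for NYE1 (SE 0.36, limma adjusted p = 0.0333). For RCCR the difference was -1.36 (SE 0.32, limma adjusted p = 0.00135), since it fell by more in atg7-2 (log2 -1.94) than in WT (-0.58). NYC1 was not called without WT starvation replicate 1 (0.97, limma adjusted p = 0.102). NYE1 was not called without WT control replicate 3 (limma adjusted p = 0.108), WT starvation replicate 1 (0.135), atg7-2 control replicate 1 (0.0710) or atg7-2 starvation replicate 2 (0.128). PPH, at 0.68, was not called (limma adjusted p = 0.0876), but was with scaling by the median of ratios (1.02, limma adjusted p = 0.0116). In DSK2 RNAi (0.207% of all genes called), bes1-D (4.45%) and bri1-301 (0.893%), 0 members had a called difference in limma. Of these, 2 in DSK2 RNAi, PPH (0.68) and RCCR (-0.74), had an unadjusted p under 0.05.

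In bes1-D controls PAO, PPH and NYC1 were lower than in WT controls, and PAO had the largest difference of these 3 genes. PAO was 142, 116 and 109.8 RPM in bes1-D controls, against 366, 219 and 454 RPM in WT controls, a log2 difference of -1.44 (SE 0.22, limma adjusted p = 2.55e-05). PPH was 129, 119 and 93.6 RPM in bes1-D controls, against 210.4, 158 and 274 RPM in WT controls, a log2 difference of -0.88 (SE 0.20, limma adjusted p = 0.00226). Both genes were below WT in each bes1-D library.

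NYC1 was 109, 138 and 87.1 RPM in bes1-D controls, against 177, 150.3 and 212 RPM in WT controls, a log2 difference of -0.70 close to the threshold (SE 0.24, limma adjusted p = 0.0464). Its call was lost without WT control replicate 1 or 3 or bes1-D control replicate 1 or 3 (adjusted p from 0.0929 to 0.261). It was also lost with scaling by the median of ratios (log2 -0.49, limma adjusted p = 0.0729), in edgeR (-0.50, adjusted p = 0.0729), with no filter on low values (limma adjusted p = 0.0615) and with only the libraries compared (0.113), where PPH was not called either (0.0670). NYE1 (-0.54), NYE2 (0.12), NOL (-0.26) and RCCR (-0.09) were not called, so 3 of 7 genes were lower where 8.86% of all genes were lower (15.7% called in either direction; 6.60% lower with scaling by the median of ratios). The authors' deposited table marks the same 3 genes as changed, among 4513 of all 28775 genes. The guard cell markers summed to 10.2 to 23.8 RPM in bes1-D controls and 27.1 to 32.7 RPM in WT controls, with 1 of 3 called lower. The floral markers summed to 1.07 to 3.25 RPM and 4.16 to 6.40 RPM in the same groups, with 2 of 5 called lower, and the part of these markers was not tested.

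Dehydrated bes1-D leaves had 4 genes lower than dehydrated WT leaves (4.34% of all genes lower, 9.31% called). PAO was 212, 187 and 175 RPM in dehydrated bes1-D leaves, against 440.2, 434 and 410.0 RPM in dehydrated WT leaves, a log2 difference of -1.17 (SE 0.22, limma adjusted p = 0.000557). NYE1 (-0.91, limma adjusted p = 0.00735), NYC1 (-0.91, limma adjusted p = 0.0135) and PPH (-0.84, limma adjusted p = 0.00474) were the other 3, each below WT in every library. NYE1 and NYC1 were not called without bes1-D dehydration replicate 3 (adjusted p 0.0644 and 0.154), and NYC1 was not called without WT dehydration replicate 1 (0.0668) or 2 (0.0673). With only the libraries compared, NYE1 (limma adjusted p = 0.0617), NYC1 (0.150) and PPH (0.0593) were not called. The epidermis markers summed to 446.1 to 576.3 RPM in dehydrated bes1-D and 343.3 to 403.0 RPM in dehydrated WT leaves, the floral markers to 1.03 to 1.89 RPM and 3.10 to 3.79 RPM, and their part was not tested.

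In starved leaves 5 genes were lower in bes1-D than in WT (15.9% of all genes lower, 25.4% called; 11.5% lower with scaling by the median of ratios). PPH was 173 and 105 RPM in starved bes1-D leaves, against 265 and 301 RPM in starved WT leaves (log2 -1.06, SE 0.24, limma adjusted p = 0.00180). PAO was 490.2 and 247 RPM in starved bes1-D leaves, against 640.0 and 739 RPM in starved WT leaves (log2 -0.98, SE 0.27, limma adjusted p = 0.00849). NYE1 (-0.93), NYC1 (-0.93) and NOL (-0.78) were also called, and the bes1-D libraries lay below WT for all 5 genes. With 2 libraries per group such separation is easily met, and its share over all genes was not computed. The 4 epidermis markers summed to 167.1 to 220.5 RPM in starved bes1-D and 334.0 to 367.3 RPM in starved WT leaves. The guard cell markers summed to 4.95 to 9.85 RPM and 14.45 to 19.54 RPM in the same groups, and the phloem markers to 13.2 to 23.9 RPM and 37.0 to 37.2 RPM, with 2 of 3 called lower in each list. The floral markers were at 13.3 to 16.7 RPM and 17.2 to 20.4 RPM, the mesophyll markers at 1290.0 to 1397 RPM and 1173 to 1233 RPM, and the part of these markers was not tested. With the trend on transcript length removed, all 5 genes were still called. Their log2 differences were then -0.94 for PPH, -0.92 for NYE1, -0.89 for PAO, -0.86 for NOL and -0.85 for NYC1. The lower bes1-D value of each gene was in replicate 2, the library with the steepest length slope, -0.93. Without that library 0 of the 5 calls remained, at log2 differences of -0.70 for PPH, -0.65 for NOL, -0.59 for NYE1, -0.55 for NYC1 and -0.49 for PAO. Without WT starvation replicate 2 the count was 2, and with only the libraries compared it was 0. NOL and PAO were not called with scaling by the median of ratios (log2 -0.46, limma adjusted p = 0.127, and -0.66, 0.0960). They were not called in edgeR (-0.53, adjusted p = 0.0770, and -0.70, 0.0720) or in DESeq2 (-0.47, adjusted p = 0.114, and -0.64, 0.0860).

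DSK2 RNAi and bri1-301 stood closer to WT. Neither had a called member in control leaves by limma (0.0656% and 0.963% of all genes called), or in dehydrated leaves (0.282% and 1.11%). NYE2 was 14.9, 7.65 and 15.2 RPM in DSK2 RNAi controls, against 23.0, 17.9 and 35.0 RPM in WT controls, without overlap, and its log2 difference of -0.99 was not called (SE 0.26, limma adjusted p = 0.323). The authors' deposited table marks NYE2 as changed there, among 95 of all 28775 genes. In starved leaves RCCR was lower in DSK2 RNAi, at 18.6 and 19.7 RPM, against 38.8 and 32.6 RPM in starved WT leaves (log2 -0.88, SE 0.25, limma adjusted p = 0.0256; 5.58% of all genes lower, 15.2% called, and 11.3% lower with scaling by the median of ratios). The RCCR call was lost without any 1 of those 4 libraries (adjusted p from 0.0552 to 0.274). The floral markers summed to 20.5 to 37.8 RPM in starved DSK2 RNAi and 17.2 to 20.4 RPM in starved WT leaves, the xylem markers to 0.540 to 0.671 RPM and 0.104 to 0.202 RPM, and their part was not tested. In starved bri1-301, 0 members were called by limma (2.16% of all genes called), with log2 differences from WT of -0.54 to 0.00. DESeq2 called NYE1 (-0.66, adjusted p = 0.0483) and NYC1 (-0.66, adjusted p = 0.0389) lower there, and NYE2 lower in dehydrated bri1-301 (-1.03, adjusted p = 0.0308).

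Levels of genes of the same or neighbouring steps were set against each other per kilobase within each library. NYE1 over NYE2 was 1.42 and 1.82 in starved atg7-2 leaves, against 0.418 and 0.455 in starved WT leaves and 0.925 to 1.05 in WT controls. It was 0.522 and 0.649 in starved DSK2 RNAi, 0.246 and 0.349 in starved bes1-D, and 0.394 and 0.562 in starved bri1-301 leaves. Among the 5 starved groups, atg7-2 was the one with a ratio above 1 in both libraries, and in the others it was below 1 in both. These ratios of RPM per kilobase are descriptions without a test.

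For the reductase subunits, NYC1 over NOL per kilobase reached 107 in starved atg7-2 leaves, where both libraries lay above every library of the other groups, against 16.2 and 23.3 in starved WT leaves and 5.19 to 7.11 in WT controls. PPH over PAO was 0.905 and 0.931 in starved atg7-2 leaves, against 0.382 and 0.389 in starved WT leaves and 0.709 to 0.741 in atg7-2 controls. In bes1-D controls this ratio was 0.801 to 0.966, a range that holds the starved atg7-2 values. PAO over RCCR was 40.3 and 43.3 in starved atg7-2, 27.4 and 32.4 in starved DSK2 RNAi and 12.3 and 17.0 in starved WT leaves. Per kilobase, NYC1 made up 56.1% of the summed level of the 7 genes in starved atg7-2 leaves, 33.5% in starved WT leaves and 20.5% in WT controls.

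**Figure D4:**
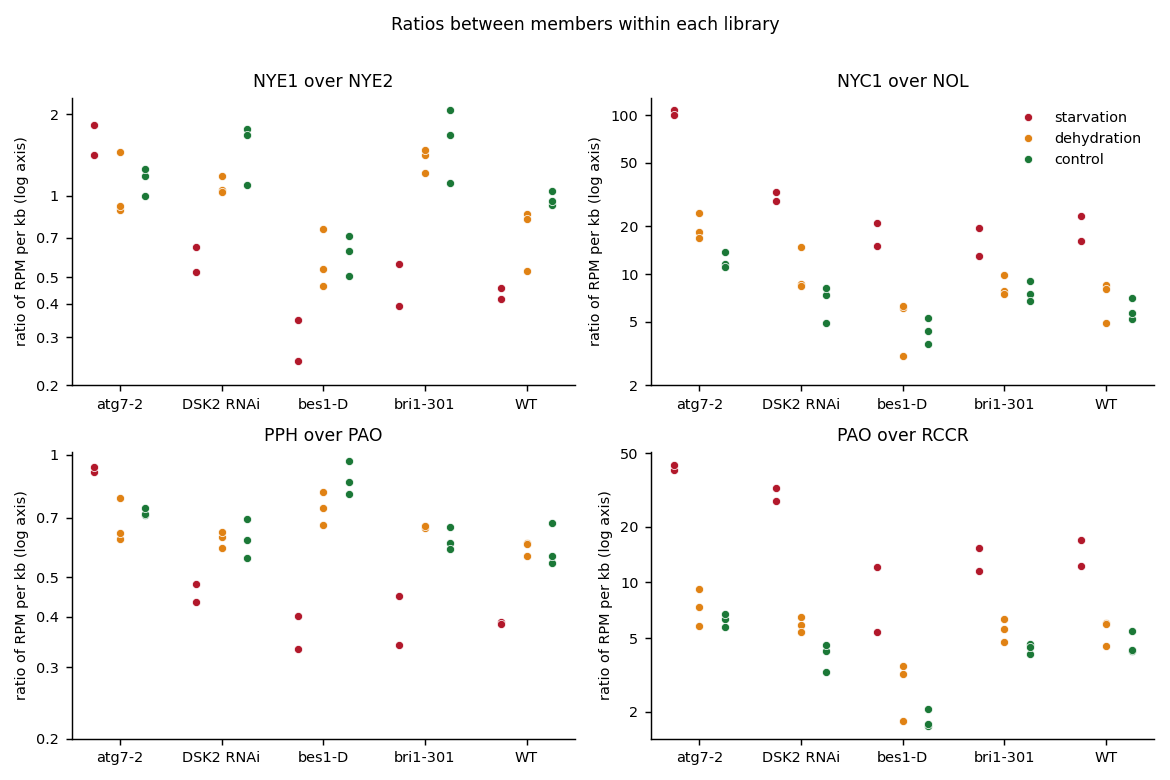
Ratio of RPM per kilobase between genes of the same or neighbouring steps (log axis) in each library, by genotype and treatment. Starved atg7-2 has the highest ratio of NYE1 to NYE2 among starved groups (1.42 and 1.82), and the highest of NYC1 to NOL (up to 107) and of PAO to RCCR (40.3 and 43.3).

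Across the 15 group means of log2(RPM + 0.5), NYE1 and NYC1 had the most similar profiles of any pair of members (Pearson r = 0.983). RCCR ran against every other member, with r from -0.864 with NYC1 to -0.328 with NOL. All of these values share libraries and the large starvation difference, and carry no test. Outside the pathway, the closest profiles were those of AT3G03440, AT1G62760 and LPLAT1 to NYE1 (r from 0.982 to 0.987), and of AT5G39520, BETA-OHASE 1 and SKIP1 to NYE2 (0.983 to 0.992). AT3G26100, ABCA7 and CYP71B3 were closest to NYC1 (0.984 to 0.993), and PUT2, UGT85A3 and GT72B1 to NOL (0.893 to 0.902). FMN/FHY, AT3G07700 and AT3G27110 were closest to PPH (0.954 to 0.976), SKP2A, HAT9 and AT1G75400 to PAO (0.959 to 0.967), and ATTRX4, SPT42 and AT1G26550 to RCCR (0.984 to 0.988).

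Of 14 other genes of chlorophyll catabolism, 4 rose and 5 fell in starved WT leaves, where 24.7% of all genes rose and 35.7% fell. Their median log2 change was -0.51, beside -0.26 over all genes. MES16, which demethylates the colourless products, averaged 899.5 ± 26.5 RPM in starved WT leaves and 63.5 ± 4.36 RPM in WT controls, a log2 change of 3.82 (SE 0.25, limma adjusted p = 5.99e-14). CLH1, a chlorophyllase, averaged 2.29 ± 0.806 RPM in starved WT leaves and 107 ± 26.6 RPM in WT controls, a log2 change of -5.27 (SE 0.34, limma adjusted p = 4.11e-14). PES1, which esterifies the released phytol, rose by 2.93 on the log2 scale in starved WT leaves and differed from WT controls by 0.94 in atg7-2 controls and by -1.07 in bes1-D controls, all 3 called.

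Of 25 transcription factors linked to leaf senescence, 13 rose and 7 fell in starved WT leaves, with a median log2 change of 0.88 beside the same shares of all genes. The NAC factors ATAF1 (4.25), NAC055 (3.10) and RD26 (2.58) had the largest changes among those that rose or fell. In atg7-2 controls 2 of the 25 were higher than in WT, NAP by 0.95 and NAC046 by 0.81 on the log2 scale (2.33% of all genes were higher). In bes1-D controls 11 of the 25 were lower, among them NAC019 (-1.58) and MYC4 (-1.49), where 8.86% of all genes were lower.

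Synthesis and antenna genes were mostly lower after starvation. Of 25 chlorophyll synthesis genes, 1 rose and 23 fell in starved WT leaves, where 35.7% of all genes fell. Their median log2 change was -1.87, beside -0.26 over all genes. PORB, a protochlorophyllide oxidoreductase, averaged 11.1 ± 0.566 RPM in starved WT leaves and 721 ± 92.9 RPM in WT controls. All 18 antenna genes fell in starved leaves of each genotype, with a median log2 change of -5.76 in atg7-2 (-0.52 over all genes, of which 47.2% fell) and -4.54 in WT.

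**Figure D5:**
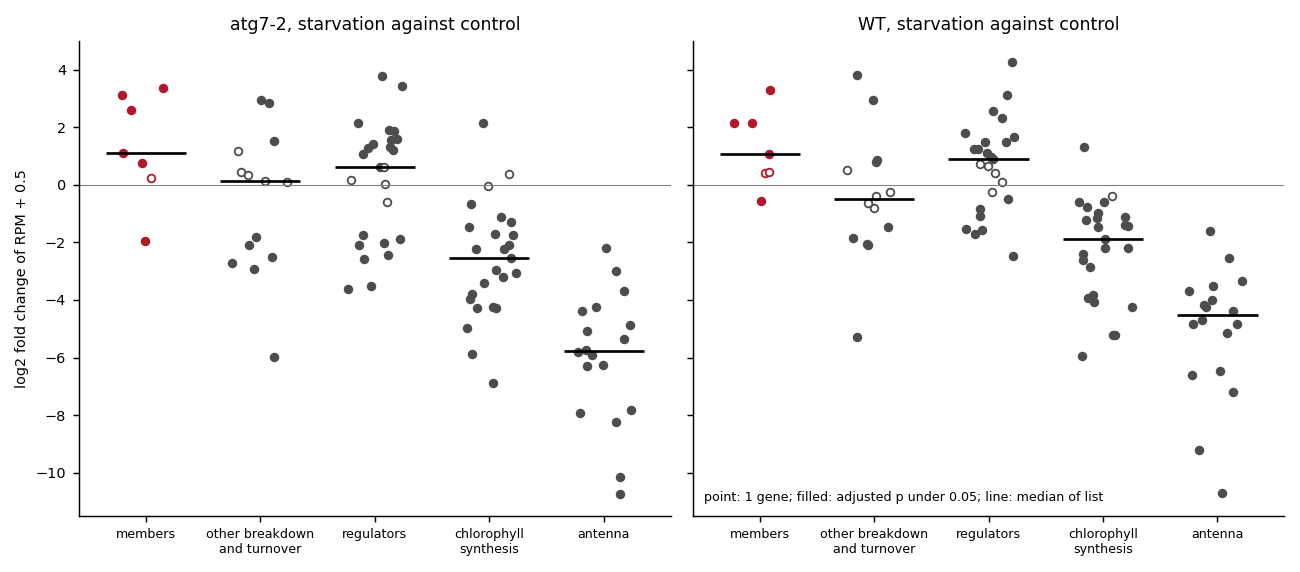
Log2 change of each gene (1 point) for starvation against control in atg7-2 and in WT, for the 7 breakdown genes, other catabolic genes, senescence-linked factors, synthesis genes and antenna genes, with filled points where the adjusted p is under 0.05 and a line at each list's median. In starved WT leaves the list medians are -0.51 for other catabolic genes, 0.88 for the factors, -1.87 for synthesis and -4.54 for the antenna, against -0.26 for all genes.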

How the data were processed

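Leaf total RNA was sequenced as 50-base single-end reads, per the labels' protocols. GSNAP, DESeq2 and the TAIR10 build are named in the submitters' processing notes, with no versions. The authors deposited 1 table of values they call RPM, whose column sums run from 985307.8 to 1023135.6, so the values are treated as a signal scaled to depth. They gave whole reads at 100.0% of values (tolerance 0.01), at 26.33 to 29.81 reads per RPM. Counting error is the only error that depth covers. The 20 average columns were not used, and 40 of 64 labelled libraries had a column. The 19824 of 28775 genes that reached 1 RPM in 2 or more libraries entered limma 3.58.1 in R 4.3.3, with trend, on log2(RPM + 0.5). The 15 groups shared 1 estimate of the spread with 25 residual degrees of freedom. Benjamini-Hochberg adjustment ran over all genes within each of 30 comparisons. A fold change on this scale understates low genes. The count tests were run on recovered reads with edgeR 4.0.16 and DESeq2 1.42.0. The fitting code was checked on simulated data. Coordinates and promoters come from RefSeq, TAIR10.1. Copies were looked for among libraries of the same group only, and none agreed within sampling noise. The members and lists were chosen with earlier results of these data known. All 7 members were tested in each comparison, and some that were not called are not named there. Overlap between the libraries of 2 groups was looked at for the members only, so its share over all genes is not known. Genes named from the other pathway lists were drawn from those called with the largest changes, and not all genes drawn are named. The draw held up to 3 genes per list in starved and in dehydrated WT, and up to 2 per mutant in control leaves. For each member the text names the 3 genes with the highest correlation of group means among genes reaching 5 RPM. Labels do not say that replicate numbers mark shared plants or days. Same-numbered libraries deviated together in 4 of 13 comparisons with 3 pairs (every correlation over 0.1): dehydration with control in bes1-D (0.16 to 0.27) and in bri1-301 (0.21 to 0.46), DSK2 RNAi with WT controls (0.24 to 0.40), and bes1-D with WT dehydrated leaves (0.56 to 0.81).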

Additional observations from a re-analysis of the deposited data

Results flagged for a closer look

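The response to starvation differed between atg7-2 and WT for 3 of the 7 genes, by a test of the difference itself in limma. Of all tested genes, 37.9% had such a called difference (9.76% positive and 28.2% negative). For NYC1 the log2 change was larger in atg7-2 by 1.22 (adjusted p = 0.0132), and it was not called without WT starvation replicate 1 (0.97, adjusted p = 0.102). For NYE1 it was larger by 0.96 (adjusted p = 0.0333), and it was not called without WT control replicate 3 (0.71), WT starvation replicate 1 (0.84), atg7-2 control replicate 1 (0.87) or atg7-2 starvation replicate 2 (0.84). For RCCR the difference was -1.36 (adjusted p = 0.00135), and it was called without any 1 library.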

How the results depend on the processing

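Of 56 called results on single genes, 23 lost the call under at least 1 alternative and 0 changed sign. Over the 5 genotypes, 26 calls for starvation became 24 to 31 under the other settings and 25 to 29 with 1 library left out. The 4 dehydration calls became 2 with no filter on low values and 2 with only the libraries compared, and 1 to 5 with 1 library left out. With only the libraries compared, the mutant calls fell to 2 of 7 in control leaves, 2 of 6 in dehydrated leaves and 5 of 10 in starved leaves. With 1 library left out they were 3 to 8, 4 to 7 and 5 to 10, and the starvation interactions were 1 to 4 against 3. Without the 2 libraries farthest in length slope, an alternative chosen after seeing the data, 5 of the 10 calls in starved leaves were left. The sign of NOL in starved bes1-D (-0.10) turned to 0.22 with the median of ratios, 0.15 in edgeR, 0.22 in DESeq2, and 0.032 without those 2 libraries. With 1 library left out it ran from -0.26 to 0.033. That of PPH (0.26) ran from -0.10 to 0.62 with 1 library left out. The cause was not tested. A fit with the replicate number as a block gave 28 calls for starvation, adding NOL in WT and bri1-301, and 4, 7, 6, 10, 3 and 0 in the other families (dehydration, control, dehydrated and starved mutants, starvation and dehydration interactions). The 2 starved libraries per group limit precision, since leaving 1 out assumes that the lone library varies like other groups.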
